A study of Homo sapiens with 3 samples.

Results

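The 8 genes described here encode GDF15, the activin subunits INHBA and INHBE, the ligands TGFB1, TGFB2, BMP2 and BMP4, and follistatin (FST), an inhibitor that binds activins. They were taken by gene name from the design of a whole-genome Agilent array, with control spots left out and every probe kept, which gave 8 of 34127 probes and 8 of 27274 gene names. Each gene was represented by 1 probe of 60 bases. The probes of FST, TGFB1 and INHBA were spotted 10 times on each array, and those of the other genes once.

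HepG2, an established human hepatocellular carcinoma line, was kept for 30 h without etoposide (control), with 10 μM etoposide (the low dose) or with 100 μM etoposide (the high dose), and RNA of each condition was hybridized to 1 one-color array. Etoposide is an anticancer drug that blocks topoisomerase II and so leaves double-strand breaks in DNA. In the study, the low dose served as a model of senescence and the high dose as one of apoptosis. The labels name the control untreated, whereas the study's own summary of the arrays names it DMSO. All 3 samples were cultures of a single tumor line in medium with serum, and differed by etoposide alone as far as the labels say. With 1 array per condition there was no replicate, so no difference below has a test or a p-value, and all values describe these 3 arrays.

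Ligands of the TGF-β family are secreted dimers that join type I and type II receptor kinases, which phosphorylate SMAD proteins. TGF-β and activin act mainly through SMAD2 and SMAD3, and BMPs act through SMAD1, SMAD5 and SMAD9. GDF15 is a distant member of the family that signals through GFRAL and RET, is known as a p53 target and as a stress-induced hormone, and is secreted by damaged liver. Activin E, the dimer of INHBE, is known as a product of hepatocytes, and BMP signaling in hepatocytes drives hepcidin, the hormone of iron balance encoded by HAMP.

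The signals belong to short stretches of these transcripts. The first 30 bases of the probes of the 5 genes that were detected are shown, 5′ to 3′ and in the sense of the transcript, because a 1-probe measurement reads only this stretch. No base is in capitals, since no part of a probe was singled out.
GDF15: tattggggtgaccttcttggggactcgggg
INHBE: ggtctacccagaaagcatgatttcctgccc
TGFB1: caactattgcttcagctccacggagaagaa
BMP4: ggacacgagactggtccaccacaatgtgac
FST: ctgtgaagatatccagtgcactggtgggaa
On hg18, the build of the array files, the GDF15 probe (NM_004864) lay at chr19:18360890-18360949 on the plus strand and the INHBE probe (NM_031479) at chr12:56137131-56137190 on the plus strand. The BMP4 probe (NM_001202) lay at chr14:53487068-53487127 on the minus strand, and the FST probe (NM_013409) at chr5:52816594-52816653 on the plus strand. The TGFB1 probe (NM_000660) spanned chr19:46529982-46539642 on the minus strand, 9661 bases for 60 bases of probe, so it crosses a splice junction and reads spliced TGFB1 RNA.

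A signal is the spot intensity after background subtraction, in arbitrary units. A probe counted as detected when the scanning software called its spots well above background, which depended on the array and had its lowest such signal at 19.5 in control cells, 22.7 at 10 μM and 21.6 at 100 μM. Between 58.1% and 59.1% of all probes were detected on the 3 arrays and no spot was saturated. For ratios, each log2 signal was set against the 75th percentile over the probes of that array, which was 514, 536 and 432 in the same order, and a difference of more than 2-fold was counted. A fold or log2 ratio is thus one of scaled signals and differs somewhat from the ratio of the signals printed. All 10 hepatocyte markers were detected on all 3 arrays. Of 8 stellate cell and fibroblast markers 2 were detected on any array, and COL1A1, COL1A2, COL3A1, DCN, LUM and THY1 were not well above background on any. Of 5 endothelial markers 3 were detected on any array, and of the 5 leukocyte markers that the array names 4 were, where PTPRC was detected by 1 of its 5 probes. More than 2-fold from control were ACTA2 and CD14 (higher) and PTPRC (lower) at 10 μM, and TTR, ACTA2, CD14 and CD68 (higher) and PDGFRB (lower) at 100 μM, and their part in the results was not tested. The arrays measure bulk RNA, in which fewer cells of a kind and less RNA per cell cannot be told apart.

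Of the 8 genes, GDF15, INHBE, TGFB1, BMP4 and FST were detected in control cells. INHBA, which encodes the subunit of activin A, had a signal of 5.23 in control cells, 5.14 at 10 μM and 6.36 at 100 μM, and none of its spots that were used was well above background. TGFB2, an isoform of TGF-β, had 19.8, 26.0 and 9.39, and BMP2, a ligand of the BMP branch, had 5.85, 6.05 and 6.45. These 3 genes were not well above background on any array, so no fold is given for them. The TGFB2 signal at 10 μM was above the lowest detected signal of that array but did not carry the call itself.

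**Figure D1:**
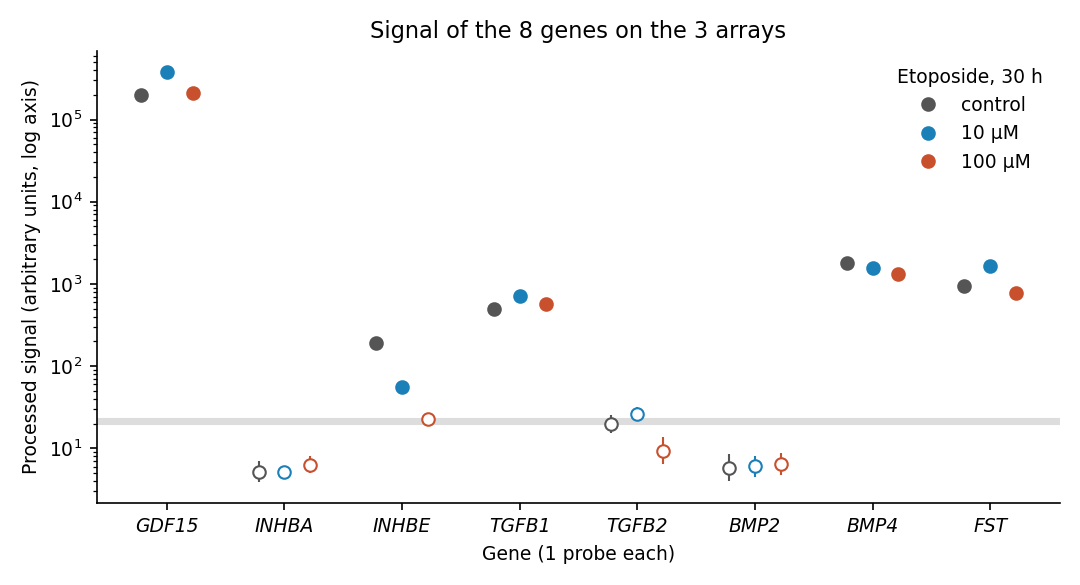
Processed signal (arbitrary units, log axis) of the probe of each of the 8 genes on the control, 10 μM and 100 μM arrays. Filled points were well above background and open points were not. Bars are 1 SD between spots on 1 array, taken from repeated probes of near signal for genes with 1 spot. The gray band spans the lowest signals well above background, 19.5 to 22.7. GDF15 and FST were highest at 10 μM, INHBE went down to the band at 100 μM, and INHBA, TGFB2 and BMP2 were open on every array.

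INHBE was the single gene of the 8 that differed from control by more than 2-fold. Its signal was 191 in control cells, 55.8 at 10 μM and 22.9 at 100 μM, where it was not well above background. After scaling it was 3.57-fold lower than control at 10 μM (log2 ratio -1.84, SD between spots 0.14) and at least 7.03-fold lower at 100 μM. Here and below, the SD beside a log2 ratio combines both arrays and is that of a ratio of single spots. INHBE had 1 spot per array, so its SD came from the 50 repeated probes nearest in signal on each. Among the 15449 genes detected on both arrays, 7 had a lower log2 ratio than INHBE at 10 μM. This rank leaves out genes that fell below the detection call at 10 μM, among them BMP5 with a log2 ratio of at most -1.87. With normexp background correction, which adds an offset to every signal and so draws dim genes towards control, the log2 ratios of INHBE were -1.13 at 10 μM and -1.25 at 100 μM.

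Over all genes, 1.6% of the 16719 detected on either array were more than 2-fold lower at 10 μM than in control cells, and 3.66% of 16984 at 100 μM. Of the 5 detected genes of the family, 1 was lower at each dose, which is a count of a single gene. None of the 5 was more than 2-fold higher at either dose, where 3.37% and 6.76% of all genes were. Between the doses, 3.63% of all genes were more than 2-fold higher at 10 μM than at 100 μM and 3.95% were lower, and 0 of the 5 genes passed in either direction. INHBE was at least 1.97-fold higher at 10 μM than at 100 μM, with bounds of 1.87-fold to 2.58-fold over the 6 other scalings and a log2 ratio of 0.12 with normexp. Under 4 of these scalings 1 or 2 of the 5 genes, INHBE and in 3 of them FST, were more than 2-fold higher at 10 μM. The median log2 ratio of those of the 8 genes detected on both arrays was 0.46 at 10 μM (5 genes) and 0.15 at 100 μM (4 genes, without INHBE). Over all genes it was -0.03 and 0.09. At 100 μM the median of the 4 genes was below 0 with no scaling (-0.10), with the median over probes (-0.14) and with spike-in scaling (-0.02). The median over all genes was lower still under these scalings, at -0.16, -0.20 and -0.09.

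INHBC, which encodes another activin subunit of hepatocytes, is the protein-coding neighbor of INHBE on chromosome 12 in RefSeq. Its probe (NM_005538) lay at chr12:56130392-56130451 on hg18. INHBC had a signal of 175 in control cells, 65.9 at 10 μM and 70.4 at 100 μM, all well above background. It was 2.77-fold lower than control at 10 μM and 2.09-fold lower at 100 μM. The second value reached 2.55-fold over the scalings tried and fell just short of the threshold in the lowest. Both genes of this pair were thus lower than control at both doses. INHBE was also lower at 100 μM, where it was not detected, than at 10 μM, whereas INHBC was not. With normexp the log2 ratio of INHBE at 10 μM over 100 μM was 0.12.

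Stress response genes were measured beside INHBE, among them genes of the ATF4 pathway. This pathway responds to amino acid shortage and to unfolded proteins and is known to include INHBE. ATF4 itself had a signal of 87328 in control cells, 55008 at 10 μM and 36594 at 100 μM. DDIT3, a factor downstream of ATF4, had 937, 494 and 275. Of 10 stress response genes, 1 was more than 2-fold lower at 10 μM and 5 at 100 μM, beside 1.6% and 3.66% of all genes. The gene lower at 10 μM was TRIB3, a pseudokinase induced by ATF4 (2.12-fold). None of the 10 was more than 2-fold higher at either dose. At 100 μM ASNS, the enzyme that makes asparagine, was 5.94-fold lower, DDIT4, an inhibitor of mTORC1, was 4.93-fold lower, TRIB3 3.50-fold, DDIT3 2.87-fold and ATF4 2.01-fold. The fold of ATF4 ranged from 1.91 to 2.45 over the scalings. ATF3, a stress factor, was instead 1.90-fold over control at 10 μM and 0.75 of it at 100 μM, and 1 of its 4 probes was below control at 10 μM. CHAC1, PPP1R15A, XBP1 and HSPA5, named to complete the list, lay within 2-fold of control at both doses. Their log2 ratios at 100 μM were -0.30, -0.16, 0.01 and 0.13. The part of the 10 genes in the INHBE values was not tested.

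GDF15 was higher than control at both doses and highest at 10 μM, by less than 2-fold. Its signal was 197088 in control cells, 375165 at 10 μM and 209375 at 100 μM. After scaling this was 1.82-fold over control at 10 μM (log2 ratio 0.87, SD between spots 0.06) and 1.26-fold at 100 μM (0.34, SD 0.06). The scaled 10 μM value was 1.44-fold over that at 100 μM, and without scaling it was 1.79-fold. At 10 μM, 559 of 15449 genes (3.62%) had a higher log2 ratio than GDF15, and at 100 μM 30% of 15466 genes did.

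The larger of these differences was many times the spread between spots, while the smaller depended on how arrays were scaled. Over 6 other scalings the log2 ratio of GDF15 lay between 0.85 and 0.93 at 10 μM and between 0.05 and 0.40 at 100 μM, and the lowest of these is below the SD between spots. GDF15 had 1 spot, so its SD was taken from the 50 repeated probes nearest in signal on each array, which were all dimmer than GDF15 (up to 186259 in control cells). This SD covers 1 array and no difference between cultures.

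The p53 targets measured on the same arrays were set beside these values. GDF15 was brighter than each of them, at up to 54.4% of the saturation value, and an effect of brightness on its folds was not tested. CDKN1A, which encodes the cell cycle inhibitor p21, had a signal of 170 in control cells, 1407 at 10 μM and 1010 at 100 μM. MDM2, the ubiquitin ligase of p53, had 616, 4522 and 1652 at its brightest probe, and its other probes were also higher than control at both doses. Of 8 p53 targets, 6 were more than 2-fold higher than control at each dose, beside 3.37% and 6.76% of all genes. Among the 6 were BTG2, an antiproliferative gene (10.1-fold and 6.82-fold), CDKN1A (7.94-fold and 7.07-fold), MDM2 (7.03-fold and 3.19-fold) and TP53I3, an oxidoreductase (5.76-fold and 3.87-fold). The median log2 ratio of the 8 was 2.23 at 10 μM and 1.62 at 100 μM. GDF15, with 0.87 and 0.34, lay below these 4 genes, which were named for the largest ratios of the list. It lay above the other 2 genes of the list that did not pass, SESN2, a sestrin (log2 ratios 0.07 and -0.56), and TNFRSF10B, a death receptor (0.40 and -0.17), which are named after their values were seen. With no scaling, the median over probes or spike-in scaling, 5 of the 8 p53 targets passed 2-fold at 100 μM.

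FST was higher than control at 10 μM and close to control at 100 μM. Its signal, averaged over 9 or 10 spots, was 932 in control cells, 1640 at 10 μM and 766 at 100 μM. After scaling it was 1.69-fold over control at 10 μM (log2 ratio 0.75, SD between spots 0.13), and 0.977 of control at 100 μM (-0.03, SD 0.14). The 10 μM value was 1.73-fold over that at 100 μM. At 10 μM, 755 of 15449 genes (4.89%) had a higher log2 ratio.

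The repeated spots show how far apart the arrays were. With the 75th percentile of the array as unit, the FST signal ran from 1.45 to 1.98 over the spots of the control array, from 2.94 to 3.15 at 10 μM and from 1.68 to 1.88 at 100 μM. The 10 μM spots did not overlap those of either other array, and the 100 μM spots lay within the control range. The low end of the control range rests on a spot with a signal of 746, and the next lowest was 868. The median spot was 1.86 in control cells and 1.80 at 100 μM. All spots of an array read 1 RNA, so their separation says nothing of differences between cultures. How many other repeated probes separate likewise was not counted. Under 2 of the 6 other scalings the sign of FST at 100 μM differed from the main value, with log2 ratios between -0.32 and 0.03 over all of them. Without scaling, FST at 10 μM was 2.14-fold over 100 μM, and with spike-in scaling 2.02-fold.

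TGFB1, the main TGF-β isoform of the injured liver, was slightly higher than control at both doses. Its signal over 10 spots was 495 in control cells, 711 at 10 μM and 567 at 100 μM. After scaling it was 1.38-fold over control at 10 μM (log2 ratio 0.46, SD between spots 0.05) and 1.36-fold at 100 μM (0.45, SD 0.06), and the ratio between the doses was 1.01. The scaled spot values ran from 0.929 to 1.0005 in control cells, from 1.27 to 1.36 at 10 μM and from 1.23 to 1.40 at 100 μM. The spots of both treated arrays thus lay above control and overlapped each other, which covers 1 RNA per array and no difference between cultures. Over the scalings the log2 ratio to control lay between 0.44 and 0.52 at 10 μM and between 0.16 and 0.51 at 100 μM. At 10 μM 11.1% of all genes had a higher ratio than TGFB1, and at 100 μM 22.5% did. Before scaling, the 10 μM array was 0.33 higher than the 100 μM array on the log2 scale, so the likeness of the doses depends on the scaling.

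**Figure D2:**
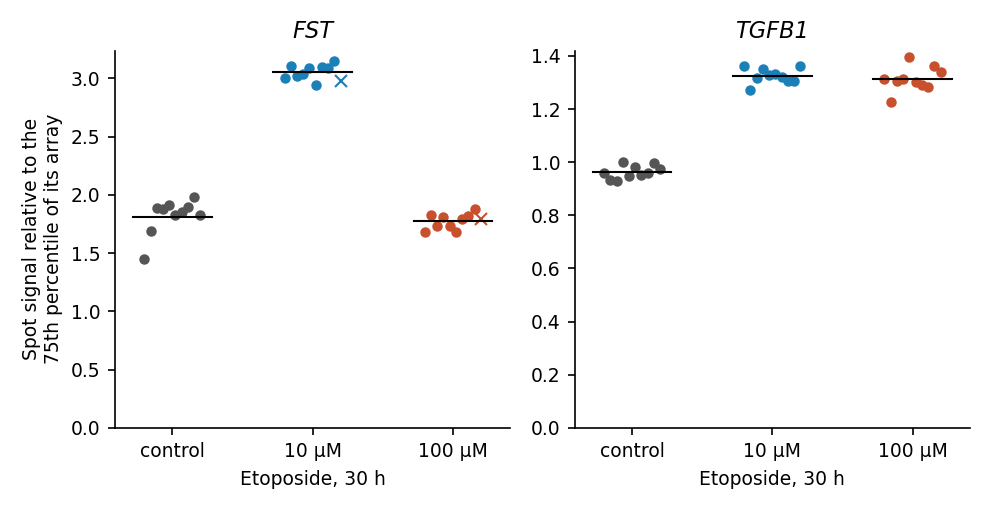
Signal of each of the 10 spots of FST and of TGFB1 in units of the 75th percentile of that array, for control, 10 μM and 100 μM etoposide. Lines are geometric means, crosses are spots that the software marked as outliers and that were left out. FST spots at 10 μM (2.94 to 3.15) lay above all others, whereas TGFB1 spots at 10 and 100 μM overlapped above control.

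BMP4, a ligand of the BMP receptors, was slightly lower than control at both doses. Its signal was 1802 in control cells, 1564 at 10 μM and 1317 at 100 μM. The scaled value was 0.832 of control at 10 μM (log2 ratio -0.27, SD between spots 0.07) and 0.869 at 100 μM (-0.20, SD 0.07). BMP4 had 1 spot per array, so these SDs came from repeated probes of near signal. Over the scalings the log2 ratio stayed below 0 in both comparisons, between -0.29 and -0.20 at 10 μM and between -0.49 and -0.14 at 100 μM. At 10 μM 22.1% of all genes had a lower ratio than BMP4, and at 100 μM 27.3% did.

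**Figure D3:**
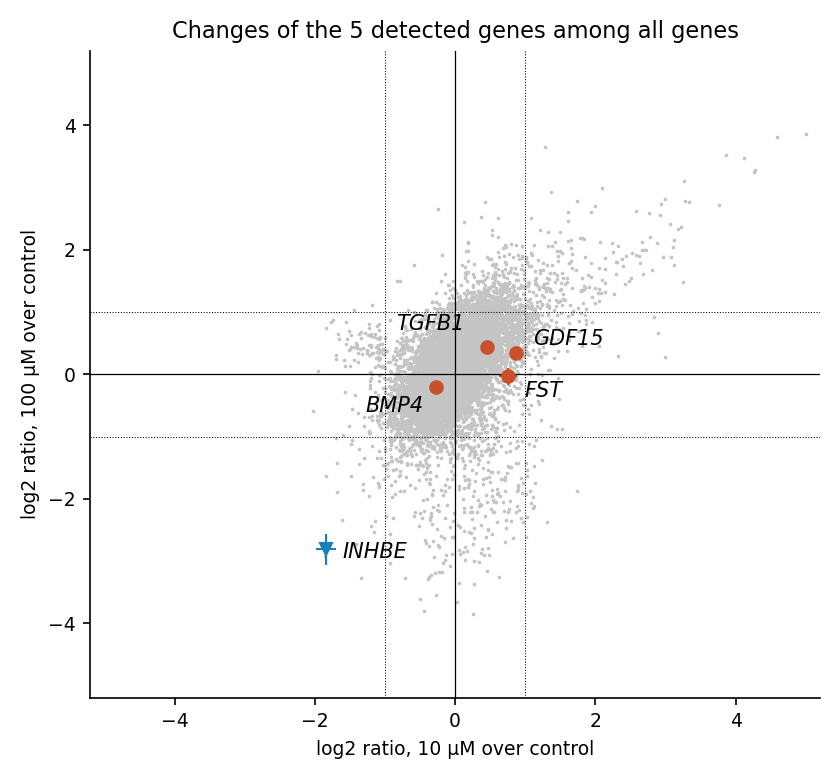
Log2 ratio to control at 10 μM (horizontal) and 100 μM (vertical) for genes well above background on all 3 arrays (gray) and for the 5 detected genes described here. Bars are 1 SD between spots; the triangle marks INHBE, whose vertical value (-2.81) is a bound since it was not well above background at 100 μM. Dotted lines mark 2-fold. GDF15 and FST lay to the right, near 0.87 and 0.75, and INHBE lay apart at the lower left.

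**Figure D4:**
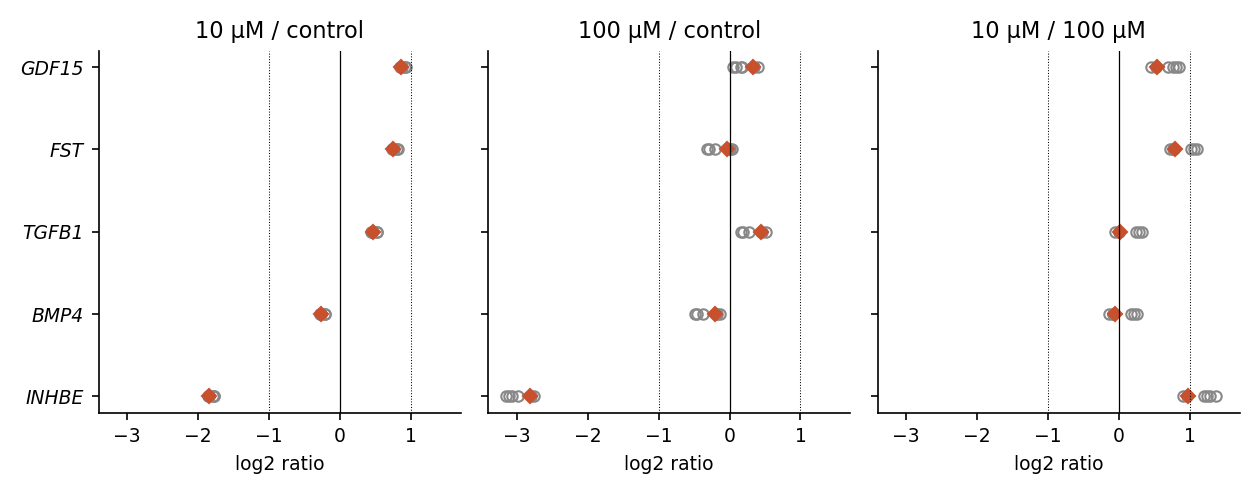
Log2 ratios of the 5 detected genes under the 75th percentile of each array (diamonds) and 6 other scalings (circles), for 10 μM over control, 100 μM over control and 10 μM over 100 μM. Dotted lines mark 2-fold. The 10 μM over control values were close together (GDF15 0.85 to 0.93), whereas comparisons with the 100 μM array spread and FST and INHBE crossed 2-fold in the last panel.

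Few genes shared the pattern of GDF15 or FST across the 3 arrays. Among 15177 other genes detected on all arrays, 19 lay within 0.1 of GDF15 in both log2 ratios to control and 15 lay within 0.1 of FST. By the same measure 186 genes were near TGFB1 and 549 near BMP4, which both lay closer to the bulk of genes. The measure rests on 3 arrays and says nothing of shared control.

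The promoters of GDF15 and FST are shown because both genes were over 1.5-fold above control at 10 μM. RefSeq sequences (GRCh38.p14) from 250 bases before to 50 bases after the start of the transcript were found for 6 of the 8 genes, all but INHBE and BMP2. Capitals mark every match to the motifs listed after the sequences, 5′ to 3′ on the strand of the gene.
GDF15 (chr19:18385908-18386207, plus strand): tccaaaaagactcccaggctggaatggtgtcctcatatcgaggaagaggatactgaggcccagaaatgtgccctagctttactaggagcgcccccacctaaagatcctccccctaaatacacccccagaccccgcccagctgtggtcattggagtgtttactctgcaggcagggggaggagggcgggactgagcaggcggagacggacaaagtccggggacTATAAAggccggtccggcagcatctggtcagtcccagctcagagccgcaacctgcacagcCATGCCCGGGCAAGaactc
FST (chr5:53480379-53480678, plus strand): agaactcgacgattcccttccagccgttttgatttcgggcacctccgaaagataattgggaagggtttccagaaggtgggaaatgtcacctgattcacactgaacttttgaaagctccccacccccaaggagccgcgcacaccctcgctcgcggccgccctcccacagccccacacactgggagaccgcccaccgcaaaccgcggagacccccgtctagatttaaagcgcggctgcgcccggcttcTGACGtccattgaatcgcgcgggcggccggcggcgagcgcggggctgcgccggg
The motifs, searched on both strands, were the p53 half-site cores at the usual distance (CATGNNNNNNCATG and CATGNNNNNNCAAG), the CREB and ATF half-site TGACG, the C/EBP-ATF element TGATGNAA, the SMAD palindrome GTCTAGAC, the BMP-SMAD box GGCGCC and the TATA box TATAAA. The p53 pairs were added after the GDF15 sequence had been seen. GDF15 held CATG and CAAG at this distance from 32 to 45 after the start, a pair in 0.581% of 35116 promoters of this length, and a TATA box from -29 to -24, a motif in 11.5% of them. FST held TGACG from -4 to 1, which 24.6% of promoters do. TGFB2 and INHBA also held TATAAA (TGFB2 from -29 to -24), TGFB2 held TGACG on the opposite strand, 1 of 3 promoters of BMP4 held GGCGCC at 2 places (19.2% of all promoters hold it), and TGFB1 held none of the motifs. TGATGNAA (3.62% of promoters), GTCTAGAC (0.202%) and the CATG pair (0.373%) were in none of these windows. A match describes letters in a window and is not a measured binding site.

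The other genes of the pathway were taken from lists by role. Of 26 other ligands, 12 were detected on any array. Detected in control cells or at the dose compared were 11 at 10 μM and 12 at 100 μM. Of these, 2 were more than 2-fold higher and 2 lower than control at each dose. Over all genes, 3.37% were higher and 1.6% lower at 10 μM, and 6.76% and 3.66% at 100 μM. The lower genes were INHBC and BMP5, a BMP ligand with a signal of 79.3 in control cells that fell below the detection call in treated cells (at least 3.65-fold lower at 10 μM). The higher genes were BMP7, also a BMP ligand, and LEFTY1, an inhibitor of Nodal. BMP7 had 15.3, 66.0 and 37.4 and stayed below the detection call in control cells, so it was at least 3.24-fold higher at 10 μM and at least 2.28-fold at 100 μM. LEFTY1 had 13.3, 71.4 and 44.9, at least 3.51-fold and 2.73-fold higher, and was also below the detection call in control cells. The SDs of these log2 ratios were large, at 0.42 and 0.45 for BMP7 and 0.47 and 0.49 for LEFTY1. The other 2 probes of BMP7 were not well above background on any array, and BMP7 at 100 μM was at least 1.75-fold in the lowest scaling.

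Of 20 receptors and co-receptors, 13 had a fold at 10 μM and 11 at 100 μM, and none of these differed from control by more than 2-fold. GFRAL, the receptor of GDF15, was not well above background on any array, and its partner RET had signals of 31.9, 35.0 and 29.2. For TGF-β, TGFBR2 had 9175, 8487 and 6734, and for activins ACVR2A had 107.3, 72.8 and 79.7. BMPR1A, a BMP receptor, had 782, 641 and 447. These receptors are named for their ligands and with their values known. Of the receptors detected on both arrays, 8 of 11 were below control at 10 μM and 8 of 9 at 100 μM, with median log2 ratios of -0.23 and -0.25 that stayed below 0 under the 6 other scalings. Over all genes the medians were -0.03 and 0.09. The second was itself below 0 with no scaling (-0.16), the median over probes (-0.20) and spike-in scaling (-0.09). With no scaling or with the median over probes as scale, 1 receptor was more than 2-fold lower at 100 μM.

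Of 15 inhibitors of the pathway other than FST, 6 were detected, and CHRD passed 2-fold. CHRD encodes chordin, which binds BMPs outside the cell. Its signal was 3290 in control cells, 4019 at 10 μM and 6456 at 100 μM, 1.17-fold and 2.33-fold over control, and the second value was 1.91-fold in the lowest scaling. FSTL3, the homolog of FST, had 235, 300 and 362 and was 1.23-fold and 1.83-fold over control, so its order over the doses differed from that of FST. Of 16 genes of latency and processing, which hold or cut the ligands, 8 were detected and none of these passed 2-fold at either dose.

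None of 16 SMADs and SMAD regulators passed 2-fold at either dose. Their median log2 ratios, below 0 under all scalings tried, were -0.29 and -0.24, beside -0.03 and 0.09 over all genes. At 100 μM 12 of the 15 detected on both arrays were below control, and 1 or 2 passed 2-fold under 4 of the 6 other scalings. Of 20 targets of SMAD2 and SMAD3, 13 were detected and 1 passed, in the higher direction at both doses. This was IL11, a cytokine induced by TGF-β, with signals of 309, 1103 and 1186, which was 3.42-fold and 4.56-fold over control. The median of the list was 0.14 and 0.21, and the second was below 0 under 2 of the 6 other scalings, where the median of all genes was too.

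Of 14 BMP targets, 11 were detected and 1 passed 2-fold, in the lower direction at both doses. At 100 μM the count of lower BMP targets was 3 with no scaling or the median over probes as scale and 2 with spike-in scaling. HAMP, which encodes hepcidin, had a signal of 14750 in control cells, 4280 at 10 μM and 4005 at 100 μM. It was 3.60-fold and 3.097-fold lower than control, and at least 2.96-fold lower under every scaling tried. ID1, a transcriptional inhibitor directly induced by BMPs, had 40205, 40288 and 28121, which was 0.96 and 0.83 of control. Of the 10 detected on both arrays, 8 were below control at each dose, with median log2 ratios of -0.39 and -0.51 that were below 0 under the 6 other scalings too. Over all genes the medians were -0.03 and 0.09. BMP4 was below control on the same arrays by less than 2-fold, and its part in these values was not tested. Several genes, among them SMAD6, SMAD7, SKIL and BAMBI, stand in more than 1 list, so the counts of the lists are not separate from each other.

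**Figure D5:**
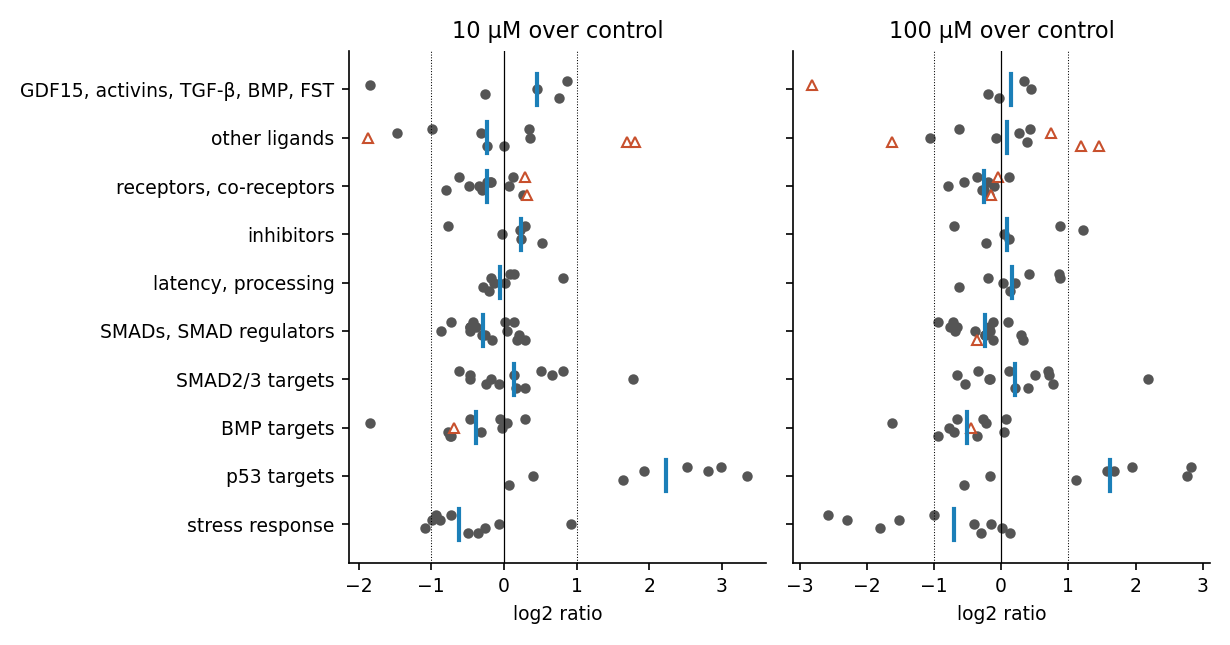
Log2 ratio to control at 10 μM (left) and 100 μM (right) of the genes of each list, 1 point per gene. Circles were measured on both arrays, open triangles are bounds, blue bars are medians of the circles and dotted lines mark 2-fold. The p53 targets had medians of 2.23 and 1.62, whereas the ligands, receptors, inhibitors and SMADs lay mostly within 2-fold.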

How the data were processed

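HepG2 RNA of 3 conditions was labeled with Cy3 and read on 3 arrays of 1 slide, 1 per condition. The authors deposited, for each array, the spot intensity from Feature Extraction (version 10.7.3.1), with background subtracted and trends removed within the array and no scaling between arrays, together with the software's flags. A deposited table of the series held the same intensity for all 44495 spots. Control spots and outlier spots were left out, log2 values were averaged over the spots of a probe, the 75th percentile over probes was subtracted, and a gene took its brightest probe. A fold required the brighter array to be well above background. A dimmer value took at least the lowest detected signal of that array, and the fold given as "at least". The SD between spots came from a probe's own spots or from 50 repeated probes of near signal. Beside a log2 ratio it is the SD of a ratio of single spots, not of a mean over spots. No saturated spot occurred. Conditions came from the labels. The members, the lists, the percentile and the 2-fold threshold were chosen with earlier results of these data known. Genes were named by a rule, which took all members and up to 4 genes per list with the largest log2 ratio past 2-fold, together with CDKN1A, MDM2, ATF4, DDIT3 and ATF3; receptors and a few targets were added for their role. Alternatives were 6 scalings, 3 other treatments of dim probes, normexp (offset 50), outlier spots kept, other probes per gene, the series table, and thresholds of 1.5-fold and 3-fold. The steps were tested on simulated arrays. Python 3.11.15, numpy 2.4.6, pandas 2.3.3, R 4.3.3 and limma 3.58.1 were used.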

Additional observations from a re-analysis of the deposited data

How the results depend on the processing

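No paired analysis was possible because there was 1 array per condition. Of 222 values of single genes under alternatives, 174 moved by less than the SD between spots and 48 by more, and none of the values past 2-fold changed sign. Many of the 174 could not move. Each gene had 1 probe, the series table held the same intensities, and treatments of dim probes leave genes detected on all arrays unchanged. The count of 174 is thus no measure of robustness. The count of genes more than 2-fold higher at 10 μM than at 100 μM was 0. It was 2 without scaling, with the median over probes and with spike-in scaling, and 1 with quantile normalization. With no filter on dim probes it was 1, which was TGFB2 (signals 26.0 and 9.39), not well above background on any array. At a 1.5-fold threshold it was 2. Over control at the low dose, 2 genes were higher at a 1.5-fold threshold, compared with 0 at 2-fold. The count of lower genes, 1 at each dose, was 0 when detection on each of the 3 arrays was required, since that leaves out INHBE. Relative to the 75th percentile, the median of all genes at 100 μM over control shifted by -0.25 without scaling, by -0.29 with the median over probes and by -0.17 with spike-in scaling, and over 100 μM the 10 μM median shifted by 0.31, 0.27 and 0.23. At 10 μM over 100 μM the sign of BMP4 differed under 3 alternatives and that of TGFB1 under 2, with log2 ratios of -0.14 to 0.25 and -0.06 to 0.33. The number of arrays limits the precision, and signal over background leaves INHBA, TGFB2 and BMP2 without a value.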
